A study of Mus musculus with 6 samples.

Results

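Balanced isoform events are alternative splicing events whose included and skipped forms were both common in control medullary thymic epithelial cells (mTECs). They were chosen by 2 conditions on the control libraries (Ctr): an inclusion frequency from 0.2 to 0.8 in both, and a difference of at most 0.1 between them. Of 4658 events in 2685 genes compared across all libraries, 748 (16.1%) in 584 genes met both conditions. The Ctr level and the closeness of the Ctr libraries are therefore the choice itself and no finding. The knockdown libraries took no part in it.

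The cells were primary mouse mTECs, the stromal cells of the thymus medulla that display tissue antigens to developing T cells. They grew on human dermal fibroblasts in a fibrin gel. Every group was infected with a lentivirus that carried a short hairpin RNA and GFP, and living MHC class II-positive, GFP-positive cells were sorted 5 days later for RNA sequencing. The study asked how loss of Raver2 or Setd2 alters the inclusion of splicing events. There were 6 libraries in 3 groups of 2. The Ctr libraries carried a hairpin against bacterial LacZ, the Raver2 libraries carried hairpins sh1 and sh2 against Raver2, and the Setd2 libraries carried hairpins sh1 and sh2 against Setd2. A hairpin and a library are thus the same thing within a knockdown, and the labels name no separate animal or culture for any library. The spread behind each p-value is that between these libraries and may be technical. No strain, age or sex is given in the sources used here.

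In alternative splicing, an exon or part of one can be joined into the messenger RNA or passed over, so that a gene makes several isoforms. Polypyrimidine tract binding protein (PTB) represses the inclusion of many exons, and Raver2 is an RNA-binding protein that binds PTB. Setd2 is the methyltransferase that places trimethylation on lysine 36 of histone H3 along transcribed genes, a mark known to be read by proteins that meet the splicing machinery.

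The measured quantity was the inclusion frequency, a fraction from 0 (never included) to 1 (always included). The tables named the gene of each event and gave neither its coordinates nor its reads. Thus no fraction has a known depth. Events of a gene are numbered here in the order in which they were listed. To show what an event of this kind can be, 3 exons are printed. They belong to genes with a balanced event past the test described below, 1 listed event and 1 exon that the GENCODE M21 annotation of mm10 shows both included and skipped and that is wholly coding. The exon is in capitals, and the 12 bases of the neighbouring exons on either side are in lower case, 5′ to 3′ on the transcript. The deposited values do not tie the event to this exon.
Golim4, chr3:75902401-75902484, minus strand: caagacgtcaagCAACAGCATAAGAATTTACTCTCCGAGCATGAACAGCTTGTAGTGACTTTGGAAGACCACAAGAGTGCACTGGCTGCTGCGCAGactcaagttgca
Nhsl1, chr10:18516029-18516160, plus strand: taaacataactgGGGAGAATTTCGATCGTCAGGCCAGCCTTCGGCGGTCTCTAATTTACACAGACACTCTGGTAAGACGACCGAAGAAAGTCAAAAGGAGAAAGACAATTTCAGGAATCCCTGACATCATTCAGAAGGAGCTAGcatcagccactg
Aatk, chr11:120016313-120016431, minus strand: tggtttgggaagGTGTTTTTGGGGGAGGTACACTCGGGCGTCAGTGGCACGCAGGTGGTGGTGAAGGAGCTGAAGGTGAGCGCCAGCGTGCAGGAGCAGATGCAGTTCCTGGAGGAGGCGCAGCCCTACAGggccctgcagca
The Golim4 exon has 84 bases and the Nhsl1 exon 132, both a multiple of 3, so that including or skipping them keeps the reading frame. The Aatk exon has 119 bases and shifts it.

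Most balanced events stayed between 0.2 and 0.8 in each knockdown. Both Raver2 libraries were still between 0.2 and 0.8 in 572 of the 748 events (76.5%), and both Setd2 libraries in 545 (72.9%). Both Raver2 libraries lay under 0.2 in 52 events and over 0.8 in 37, and both Setd2 libraries in 57 and 27. In 87 events with Raver2 hairpins and 119 with Setd2 hairpins the libraries of a target fell on different sides of a bound. The median fraction was 0.488 and 0.481 in the Ctr libraries, 0.478 and 0.468 in the Raver2 libraries, and 0.469 and 0.465 in the Setd2 libraries.

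Differences from Ctr were small for most events. The mean was within 0.1 of Ctr in 513 events (68.6%) with Raver2 hairpins and in 505 (67.5%) with Setd2 hairpins. A difference of at least 0.2 was reached by 89 events under Raver2 knockdown (11.9%), of which 43 were higher and 46 lower. Over all 4658 events the share was 16.6%, with 7.88% higher and 8.72% lower. Under Setd2 knockdown it was reached by 102 events (13.6%), of which 40 were higher and 62 lower. Over all events the share was 17.4%, with 7.36% higher and 10.1% lower. Only 16 and 15 events differed by 0.5 or more. The median difference from Ctr was -0.0053 under Raver2 knockdown and -0.0057 under Setd2 knockdown. Its absolute value had a median of 0.0653 and 0.0627, where over all events it was 0.0423 and 0.0412. Both libraries lay beyond both Ctr libraries in 461 events for Raver2 (219 above, 242 below) and in 432 for Setd2 (201 above, 231 below). These are 61.6% and 57.8% of the balanced events, beside 44% and 42.5% of all events. The share depends on the Ctr difference, which the rule capped at 0.1. Its median was 0.0376 over the balanced events and 0.0335 over all events. The cause of the gap between the shares was not tested.

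**Figure D1:**
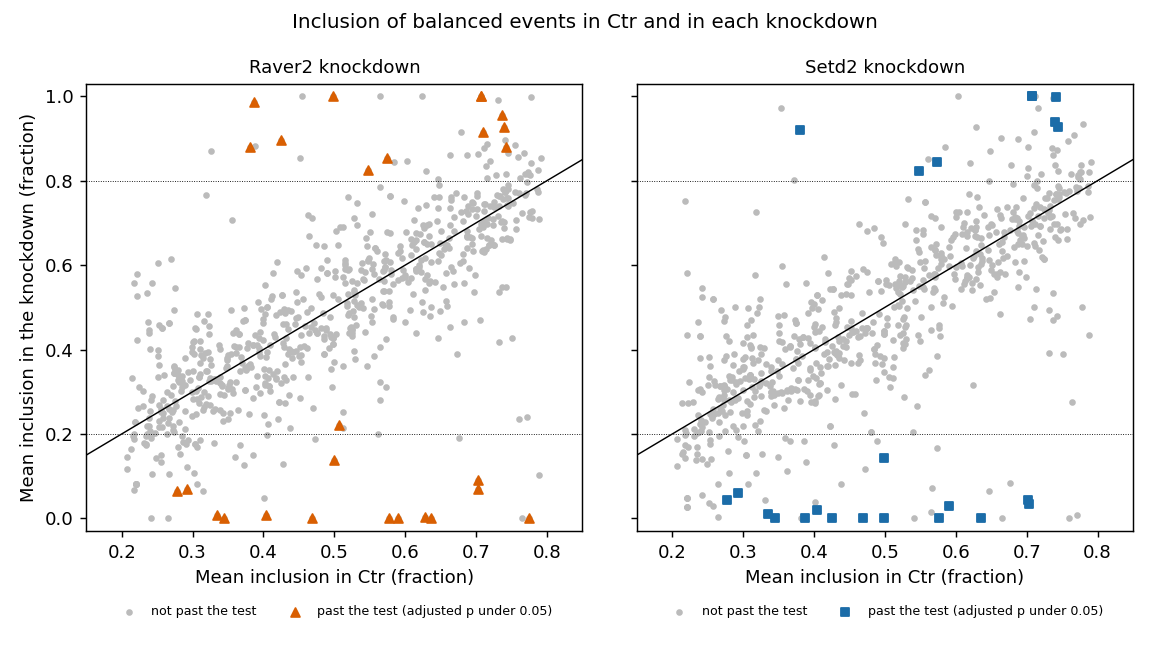
Mean inclusion of the 748 balanced events in Ctr (x axis, fraction) against the mean under Raver2 knockdown (left) or Setd2 knockdown (right), 1 point per event. Most points lie near the diagonal of equal inclusion, and 572 (left) and 545 (right) events had both knockdown libraries within the 0.2 to 0.8 range marked by dotted lines; triangles and squares are the 27 and 23 events past the test.

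Large differences were also counted by starting level. Of 265 events with a Ctr mean from 0.2 to 0.4, 20 were higher and 11 lower by at least 0.2 with Raver2 hairpins, and 17 were higher and 16 lower with Setd2 hairpins. Of 255 events from 0.4 to 0.6, 14 were higher and 18 lower with Raver2 hairpins, and 9 were higher and 26 lower with Setd2 hairpins. Of 228 events from 0.6 to 0.8, 9 were higher and 17 lower with Raver2 hairpins, and 14 were higher and 20 lower with Setd2 hairpins.

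The rule did not use the values of the 2 hairpins of a target, though the level in Ctr that it fixed is far from 0 and 1, where fractions can differ most. The hairpins differed by a median of 0.0470 for Raver2 and 0.0547 for Setd2 over the balanced events, beside 0.0277 and 0.0296 over all events. The hairpins of Raver2 were more than 0.1 apart in 172 events (23%) and those of Setd2 in 218 (29.1%). Over all events the shares were 22.9% and 25.5%. When the same rule was applied to each knockdown pair, 827 events were balanced under Raver2 knockdown and 713 under Setd2 knockdown. The Raver2 and Setd2 sets had 541 events in common, 65.4% of the former and 75.9% of the latter. The Ctr and Raver2 sets had 470 in common, 62.8% of the Ctr set and 56.8% of the Raver2 set. The Ctr and Setd2 sets had 429 in common, 57.4% and 60.2% of the sets, and 368 events were balanced in all 3 groups.

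Events of a gene are not independent. Of the 584 genes, 468 had 1 balanced event and 116 had more, up to 6. Among pairs of balanced events in a gene, 54 pairs in 35 genes summed to 1 within 0.01 in all 6 libraries, so that the inclusion of each was the skipping of the other. In 37 pairs the deposited values were exactly equal, with no tolerance, in all 6 libraries. The genes with a balanced event that the annotation holds (568) had a median of 9 annotated transcripts and 29 distinct exons, beside 7 and 24 in the other 2024 genes compared. An annotated skipped exon was present in 82.7% of the former and 77.3% of the latter. A single event was listed for 47.4% of the former and 66.5% of the latter, and a gene with more listed events has more chances to hold a balanced one.

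Each knockdown was compared with Ctr by limma, a linear model fitted to all 4658 events at once, with Benjamini-Hochberg adjustment over all of them and an adjusted p of 0.05 as the threshold. The error came from the differences between hairpins, since the Ctr difference was part of the choice. It therefore leaves out the Ctr spread, and it is very small where all knockdown libraries sit at 0 or 1. The fit was repeated with the error from all 6 libraries. That error, and one from the 4 libraries of a comparison, hold the Ctr difference that the rule capped. Such errors can thus be too small for balanced events, and passing with them is no independent check. At an unadjusted limma p under 0.05, the 6-library fit held 15.1% (Raver2) and 14.8% (Setd2) of balanced events, beside 12% and 11.6% of all events. The main fit held 13.4% and 13.5%, beside 18.2% and 18.4%. Under Raver2 knockdown 27 balanced events in 25 genes (3.61%) were past the test, 12 higher and 15 lower. Of all events 8.76% were past it, 3.07% higher and 5.69% lower. Under Setd2 knockdown 23 events in 22 genes (3.07%) were past it, 8 higher and 15 lower. Of all events 8.44% were, 3.03% higher and 5.41% lower. With the error from all 6 libraries the counts were 24, all among the 27, and 23, of which 20 were among the 23, where 2.43% and 2.23% of all events were past the test. The events lost were those of App, Itga6 and Smox for Raver2 and Abi3bp, Itga6 and Pomgnt2 for Setd2, and below the adjusted p from that fit is given for these and for some of the events kept. Fitted to the 4 libraries of a comparison alone, the counts were 9, of which 5 were among the 27, and 0, where 1.61% and 0% of all events were past the test. In that fit 117 (15.6%) and 103 (13.8%) balanced events had an unadjusted p under 0.05, as did 13.1% and 11.9% of all events. Since the choice used the Ctr values, these counts describe the events and are no test of the group. Both comparisons share the Ctr libraries, so their values are set side by side and an event past both tests has not been found by separate evidence.

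**Figure D2:**
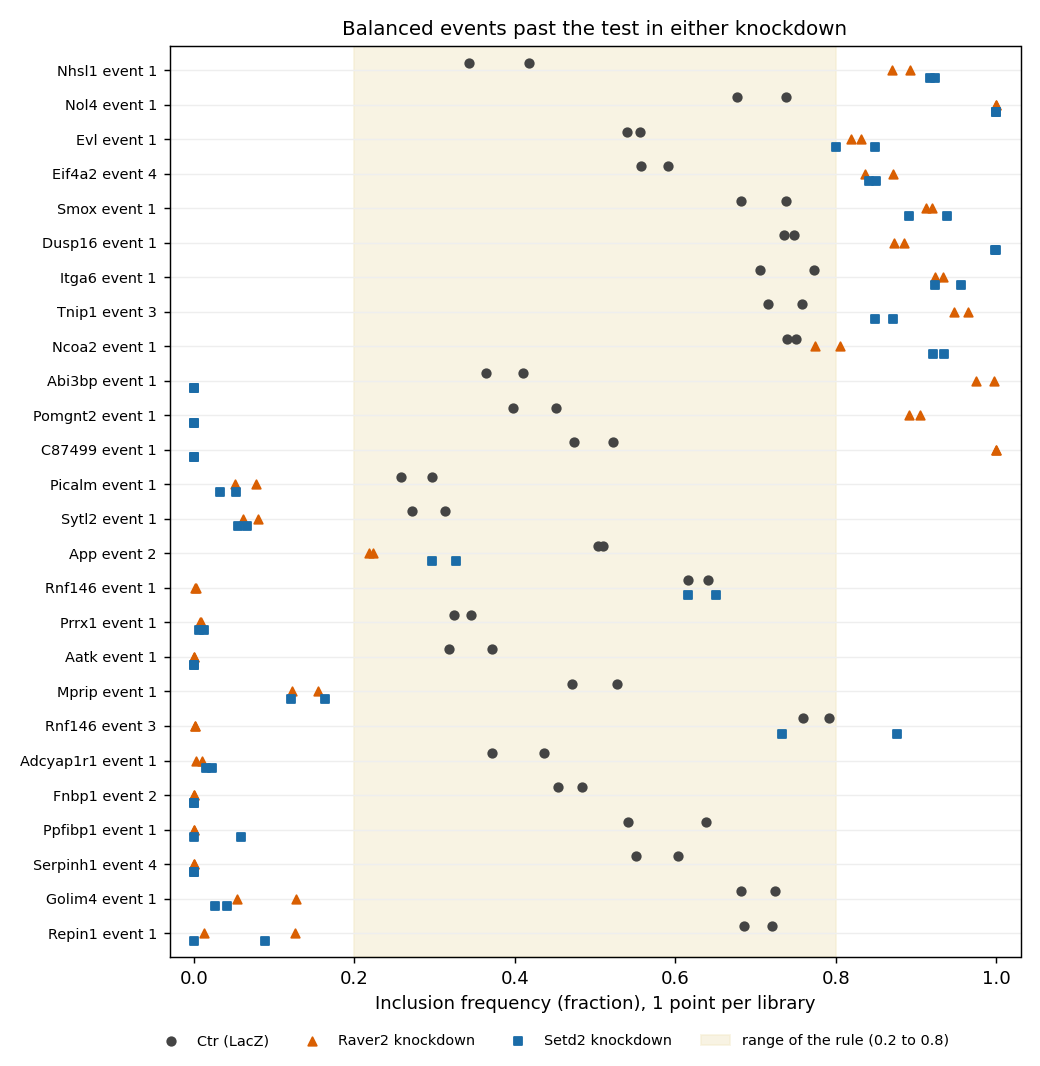
Inclusion frequency (x axis, fraction) in each of the 6 libraries for balanced events past the test in either knockdown, 1 row per event. Of the 28 such events, 26 are drawn, with the identical Nol4 events shown once. Circles are Ctr, triangles Raver2 and squares Setd2 libraries, and the shaded band is the 0.2 to 0.8 range that chose the events. Abi3bp and C87499 have triangles near the right end and Pomgnt2 at 0.891 and 0.904, and the squares of these genes lie near 0.

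Genes of the actin cytoskeleton held 20 balanced events, of which 2 higher and 3 lower were past the test in each knockdown. By at least 0.2, 3 were higher and 5 lower in each knockdown. The share past the test was 3.61% (Raver2) and 3.07% (Setd2) of balanced events, and 8.76% and 8.44% of all events. These shares stand beside the counts of each gene list below. Nhsl1, a relative of the Nance-Horan syndrome protein that takes part in cell migration, had a fraction of 0.418 and 0.343 in Ctr. It was 0.892 and 0.869 in the Raver2 libraries and 0.924 and 0.917 in the Setd2 libraries. All 4 knockdown libraries lay above both Ctr libraries by more than 0.4. The rise was 0.50 ± 0.0149 (SE) under Raver2 knockdown (limma, adjusted p = 0.00349, and 0.0158 with the error from all 6 libraries) and 0.540 under Setd2 knockdown (adjusted p = 0.00296 and 0.0167). Evl, an Ena/VASP protein that promotes actin filament growth, went from 0.556 and 0.539 in Ctr to 0.819 and 0.831 with Raver2 hairpins and 0.848 and 0.7997 with Setd2 hairpins. The groups did not overlap, and the rise was 0.278 and 0.277 (limma, adjusted p = 0.0355 and 0.0362).

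The falling actin events included those of Fnbp1 and Mprip. Fnbp1, an F-BAR protein that curves membranes where actin assembles, had 0.453 and 0.484 in Ctr in event 2, and all 4 knockdown libraries were below 0.01. The limma adjusted p with the error from all 6 libraries was 0.00379 for Raver2 and 0.00568 for Setd2. Mprip, which brings myosin phosphatase to actin filaments, fell less far. Its fraction of 0.471 and 0.527 in Ctr became 0.155 and 0.123 with Raver2 hairpins and 0.121 and 0.163 with Setd2 hairpins. No knockdown library reached 0.2, and the fall was 0.360 ± 0.0278 (SE) under Raver2 knockdown and 0.357 under Setd2 knockdown (limma, adjusted p = 0.0264 and 0.0275).

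Among the other actin events, those of Add3 and Cttn were not past the test. Add3, an adducin that caps filaments in the membrane skeleton, had 0.247 and 0.237 in Ctr, 0.572 and 0.541 in the Raver2 libraries and 0.536 and 0.554 in the Setd2 libraries. The groups did not overlap, and the limma adjusted p was 0.0554 and 0.0601. Cttn, the branched-actin protein cortactin, had 0.680 and 0.672 in Ctr, while its Raver2 hairpins gave 0.382 and a value below 0.01 and its Setd2 hairpins a value below 0.01 and 0.165. The hairpins of each target were far apart there, and the adjusted p was 0.395 and 0.302.

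Golgi, endocytosis and vesicle genes held 15 balanced events, of which 3 were past the test in each knockdown, all lower. By at least 0.2, 1 was higher and 3 lower with Raver2 hairpins, and 2 were higher and 3 lower with Setd2 hairpins. Golim4, a membrane protein that cycles between the Golgi and endosomes, had 0.724 and 0.681 in Ctr, 0.128 and 0.0540 in the Raver2 libraries and 0.0420 and 0.0269 in the Setd2 libraries. The event went from mostly included to mostly skipped in all 4 knockdown libraries, a fall of 0.612 ± 0.0372 (SE) and 0.668 (limma, adjusted p = 0.0161 and 0.0143). Sytl2, a Rab27 effector on secretory vesicles, had 0.313 and 0.272 in Ctr, 0.0613 and 0.0798 with Raver2 hairpins and 0.0555 and 0.0662 with Setd2 hairpins. Picalm, a clathrin assembly protein, had 0.258 and 0.296 in Ctr, 0.0515 and 0.0780 with Raver2 hairpins and 0.0530 and 0.0333 with Setd2 hairpins. Both started near the lower bound of the rule and had every knockdown library under 0.1. Their falls were 0.222 and 0.232 for Sytl2 (limma, adjusted p = 0.00879 and 0.00839) and 0.213 and 0.234 for Picalm (adjusted p = 0.0210 and 0.0180). The median difference of the 15 events was -0.0536 and -0.0615, where it was -0.0053 and -0.0057 over all balanced events.

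Genes with exons known to switch between epithelium and mesenchyme held 25 balanced events. Past the test were 1 higher and 5 lower with Raver2 hairpins, and 1 higher and 4 lower with Setd2 hairpins. By at least 0.2, 1 was higher and 7 lower with Raver2 hairpins, and 2 were higher and 6 lower with Setd2 hairpins. Golim4, Picalm and Mprip, described above, are on this list too, as are Add3 and Cttn, which were not past the test. The higher event past the test was that of Itga6, the laminin-binding integrin α6. It stood at 0.706 and 0.773 in Ctr, 0.923 and 0.933 with Raver2 hairpins and 0.956 and 0.924 with Setd2 hairpins. Its adjusted p by limma was 0.0301 and 0.0269, but 0.105 and 0.0878 with the error from all 6 libraries. App, the amyloid precursor protein, had 0.504 and 0.509 in Ctr in event 2 and 0.224 and 0.218 with Raver2 hairpins, with 0.297 and 0.327 for Setd2. All 4 knockdown libraries were lower than Ctr, and the limma adjusted p was 0.0451 for Raver2 and 0.0973 for Setd2. With the error from all 6 libraries the App p for Raver2 was 0.1003. The related Aplp2 had 0.649 and 0.678 in Ctr in event 2, 0.879 and 0.842 with Raver2 hairpins and 0.880 and 0.922 with Setd2 hairpins (limma, adjusted p = 0.0747 and 0.0531).

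**Figure D3:**
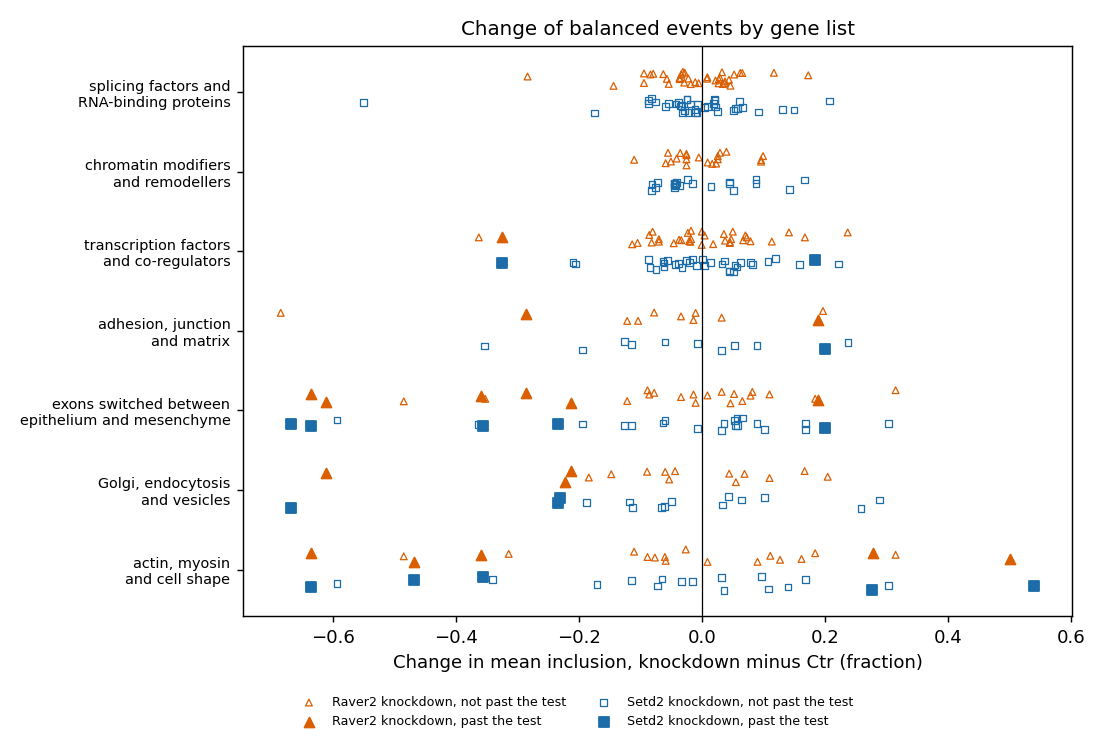
Difference of mean inclusion from Ctr (x axis, knockdown minus Ctr, fraction) for balanced events of 7 gene lists, with triangles for Raver2 and squares for Setd2 knockdown and filled symbols past the test. Points are spread vertically at random, and a gene may be on several lists; the 38 events of splicing factors and RNA-binding proteins and the 21 of chromatin genes have no filled symbol.

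Among 5 balanced events in genes typical of fibroblasts, 2 were past the test in each knockdown, both lower. By at least 0.2, 3 were lower and 0 higher in each knockdown. Serpinh1, a collagen chaperone, had 0.603 and 0.550 in Ctr in event 4 and under 0.01 in all 4 knockdown libraries (limma, adjusted p = 0.000762 and 0.000757, and 0.0052 and 0.0061 with the error from all 6 libraries). Prrx1, a homeobox factor of mesenchyme, had 0.325 and 0.345 in Ctr. It had 0.0079 and 0.0097 with Raver2 hairpins and 0.0128 and 0.0072 with Setd2 hairpins, so that the included form was nearly gone in every knockdown library (adjusted p = 0.000646 and 0.000656). Inclusion frequencies hold no expression level, so whether the share of RNA from other cells moved with these events was not tested. Of the marker genes, 3 of 14 for mTECs (Aire, Cd74 and Cd40), 0 of 4 for cortical epithelium, 1 of 10 for fibroblasts (Postn) and 3 of 10 for leukocytes (Ptprc, Cd8a and Lck) had a listed event. Only Cd8a, a T cell coreceptor chain, had a balanced one. Raver2 and Setd2 had no listed event, so the knockdown itself was not checked here.

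Events in Aatk, Adcyap1r1 and Ppfibp1, which are not grouped by any list here, fell in both knockdowns. Aatk, a kinase first linked to apoptosis, had 0.372 and 0.318 in Ctr and was below 0.01 in all 4 knockdown libraries (limma, adjusted p = 0.000599 and 0.00061, and 0.0130 and 0.0162 with the error from all 6 libraries). Adcyap1r1, the receptor of the neuropeptide PACAP, had 0.371 and 0.437 in Ctr and no more than 0.0233 in any knockdown library (adjusted p = 0.00105 and 0.00114). Ppfibp1, a liprin that organises membrane scaffolds, had 0.639 and 0.541 in Ctr and was under 0.01 in 3 knockdown libraries, with 0.0585 for the Setd2 hairpin sh1 (adjusted p = 0.00887 and 0.0104). These 3 events ended near 0 under either knockdown.

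The list of kinases, phosphatases and signalling brakes held 18 balanced events. Those past the test were higher, 2 with Raver2 hairpins (Dusp16 and Tnip1) and 1 with Setd2 hairpins (Dusp16). The kinase Aatk, described above, is not on this list, and its event was past the test and lower in both knockdowns. Dusp16, a phosphatase that switches off MAP kinases, had 0.735 and 0.748 in Ctr, 0.885 and 0.872 with Raver2 hairpins and values above 0.99 with Setd2 hairpins. It rose by 0.137 ± 0.0068 (SE) and 0.257 (limma, adjusted p = 0.0106 and 0.00273), with no overlap between any of the groups. Tnip1, which restrains NF-κB, had 0.716 and 0.758 in Ctr in event 3, 0.964 and 0.947 with Raver2 hairpins and 0.848 and 0.872 with Setd2 hairpins. It rose under Raver2 knockdown (adjusted p = 0.0163), while the Setd2 comparison had an adjusted p of 0.0552. The Raver2 and Setd2 values of Dusp16 and Tnip1 were not past the test between the knockdowns (adjusted p = 0.0681 and 0.334).

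The translation genes held 8 balanced events, of which 1 was past the test in each knockdown, and higher. It was event 4 of Eif4a2, a helicase that unwinds messenger RNA for the ribosome, with 0.557 and 0.590 in Ctr, 0.871 and 0.837 with Raver2 hairpins and 0.849 and 0.841 with Setd2 hairpins. The groups did not overlap, and the rise was 0.280 ± 0.0178 (SE) and 0.272 (limma, adjusted p = 0.0174 and 0.0192). Event 3 of Eif4a2 had 0.259 and 0.288 in Ctr and between 0.467 and 0.514 in the knockdown libraries. Event 1 had 0.278 and 0.280 in Ctr and between 0.133 and 0.206 in the knockdown libraries. Neither was past the test (adjusted p from 0.112 to 0.301). Eif4a2 is also on the list of genes with exons known to respond to PTB, and event 4 was the 1 event past the test among 13 on that list in each knockdown.

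Single events of other genes were past the test as well. Nol4, a nucleolar protein, listed a pair of events with identical values, 0.676 and 0.738 in Ctr and above 0.99 in all 4 knockdown libraries (limma, adjusted p = 0.00062 and 0.000628). Repin1, a zinc finger protein, had 0.685 and 0.720 in Ctr, 0.0124 and 0.126 with Raver2 hairpins and a value below 0.01 and 0.0886 with Setd2 hairpins (adjusted p = 0.0482 and 0.0453). Smox, which oxidises spermine, had 0.682 and 0.737 in Ctr and between 0.892 and 0.938 in the knockdown libraries (adjusted p = 0.0481 for Raver2). Its adjusted p for Setd2, 0.05003, missed the threshold narrowly, and with the error from all 6 libraries neither passed (0.0752 and 0.0798). Ncoa2, a coactivator of nuclear receptors, had 0.750 and 0.739 in Ctr and 0.774 and 0.806 with Raver2 hairpins. With Setd2 hairpins it had 0.935 and 0.921, above every other library, and it rose by 0.183 ± 0.0163 (SE, adjusted p = 0.0368), while the adjusted p between the knockdowns was 0.261.

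Events 1 and 3 of Rnf146, a ubiquitin ligase that recognises poly(ADP-ribose), had values near 0 with both Raver2 hairpins. Event 1 had 0.641 and 0.616 in Ctr, values below 0.01 with both Raver2 hairpins, and 0.616 and 0.651 with Setd2 hairpins. Event 3 had 0.759 and 0.791 in Ctr, again values below 0.01 with Raver2 hairpins, and 0.733 and 0.876 with Setd2 hairpins. Both fell under Raver2 knockdown (limma, adjusted p = 0.0128 and 0.0363), and the Setd2 libraries stood at or around the Ctr level. The difference between the knockdowns missed the threshold for both (limma, adjusted p = 0.0608 and 0.139). With the error from all 6 libraries event 1 passed it (0.0455) and event 3 did not (0.0521). That error holds the Ctr difference that the rule capped.

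Several large differences were not past the test. Epb4.1l1, a membrane skeleton protein of the band 4.1 family, had 0.623 and 0.670 in Ctr in event 2, 0.410 and 0.446 with Raver2 hairpins and 0.128 and below 0.01 with Setd2 hairpins. Every Raver2 library lay below Ctr and every Setd2 library below those, and the limma adjusted p was 0.285 and 0.0578. Dmkn, the epidermal protein dermokine, had 0.774 and 0.768 in Ctr, while its Raver2 hairpins gave 0.472 and a value below 0.01 and its Setd2 hairpins 0.0133 and a value below 0.01 (adjusted p = 0.406 and 0.2504).

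Among signalling and trafficking genes, Tsc2, a brake on mTOR, had 0.373 and 0.346 in Ctr, 0.147 and 0.145 with Raver2 hairpins and 0.160 and 0.220 with Setd2 hairpins. All 4 knockdown libraries were lower than Ctr (limma, adjusted p = 0.0828 and 0.124). Sytl4, a Rab27 effector like Sytl2, had 0.722 and 0.753 in Ctr, 0.723 and 0.840 with Raver2 hairpins and above 0.99 with both Setd2 hairpins. The Raver2 libraries overlapped Ctr and the Setd2 libraries did not (adjusted p = 0.814 and 0.163).

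The calls rested on few libraries. Of the 28 balanced events past the test in either knockdown, 16 had at least 1 knockdown library below 0.01 or above 0.99. So did 12.03% of all balanced events and 51.7% of all events compared. When only the 2000 events with all 6 fractions between 0.01 and 0.99 were fitted, no balanced event was past the test for Raver2 by limma. The smallest adjusted p was 0.0635, and 82 balanced events (12.5%) had an unadjusted p under 0.05, as did 14.8% of all events fitted. For Setd2, Golim4 and Nhsl1 passed, and 0.15% of all events fitted did. With any library left out, 9 of the 27 Raver2 events kept an adjusted p under 0.05, among them those of Aatk, Adcyap1r1, Fnbp1, Nhsl1, Prrx1 and Serpinh1 and the pair in Nol4. For Setd2, 9 of 23 did, among them those of Aatk, Adcyap1r1, C87499, Fnbp1, Prrx1 and Serpinh1 and the pair in Nol4. Nhsl1 did not, and its highest p was 0.0508 without the Setd2 hairpin sh1. App, Evl and Repin1 for Raver2, and Evl, Ncoa2 and Repin1 for Setd2, did not pass with any library left out. The highest p of the remaining events on leaving out a library was between 0.0509 without the Setd2 hairpin sh1 (Abi3bp) and 0.230 without the Raver2 hairpin sh1 (Smox) for Raver2. For Setd2 it reached 0.143 without the Setd2 hairpin sh1 (Eif4a2).

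In the main fit, the difference between the knockdowns and its residual use no library that chose the events. The variance trend, however, was read at the mean over all 6 libraries, Ctr included. The p-values of this comparison are thus not wholly free of the choice. Between Raver2 and Setd2 knockdown, 3 balanced events were past the test (0.401%), all higher under Raver2 knockdown. Of all events 1.01% were past it, and 0.494% were higher. Abi3bp, an extracellular matrix protein (chr16:56477878-56690135, plus strand), had 0.975 and 0.997 with Raver2 hairpins and below 0.01 with both Setd2 hairpins, with Ctr in between at 0.410 and 0.364. Against Ctr its Setd2 value did not pass with the error from all 6 libraries (adjusted p = 0.0702). C87499 (chr4:88627320-88634411, minus strand) was above 0.99 with both Raver2 hairpins and below 0.01 with both Setd2 hairpins, with 0.523 and 0.474 in Ctr. Pomgnt2, an enzyme that extends the sugar chain of dystroglycan (chr9:121981606-121997110, minus strand), had 0.891 and 0.904 with Raver2 hairpins and below 0.01 with both Setd2 hairpins, with 0.398 and 0.452 in Ctr. Its Setd2 value against Ctr had an adjusted p of 0.05998 with that error. In each of the 3 events, every Raver2 library lay above both Ctr libraries and every Setd2 library below them.

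The Raver2 fraction exceeded the Setd2 fraction by 0.986 for Abi3bp, 0.9995 for C87499 and 0.897 for Pomgnt2 (limma, adjusted p = 0.0259, 0.0251 and 0.0298). The calls needed all 4 knockdown libraries. Leaving out any of them raised the adjusted p of each event above 0.05, up to 0.0882 without the Setd2 hairpin sh1 for Abi3bp and Pomgnt2 and 0.0786 for C87499. The number of balanced events past the test was 0 without the Raver2 hairpin sh1, 1 without sh2, 0 without the Setd2 hairpin sh1 and 1 without sh2. With the error from all 6 libraries 5 events were past it, as were 0.73% of all events. Dusp16 and event 1 of Rnf146 were the added ones (limma, adjusted p = 0.0419 and 0.0455). That error holds the Ctr difference that the rule capped, so the added calls are not free of the choice.

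The knockdown means were at least 0.2 apart in 63 balanced events (8.42%), beside 13.6% of all events, with Raver2 higher in 39 and Setd2 higher in 24. The median absolute difference between them was 0.0374, where over all events it was 0.0261. In 28 events both libraries of a target lay above both Ctr libraries and both libraries of the other below them, with Raver2 above in 15 and below in 13. These are 3.74% of the balanced events, beside 2.19% of all events. The share depends on the Ctr difference that the rule capped, and the cause of the gap was not tested. Besides the 3 named, Tcp11 and Sbsn had the widest gaps. Sbsn, the epidermal protein suprabasin, had 0.324 and 0.382 in Ctr, 0.187 and 0.314 with Raver2 hairpins and above 0.99 and 0.944 with Setd2 hairpins (limma, adjusted p = 0.158 between the knockdowns). Tcp11, a testis gene, had 0.351 and 0.425 in Ctr, 0.829 and 0.937 with Raver2 hairpins and below 0.01 and 0.265 with Setd2 hairpins (adjusted p = 0.437).

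**Figure D4:**
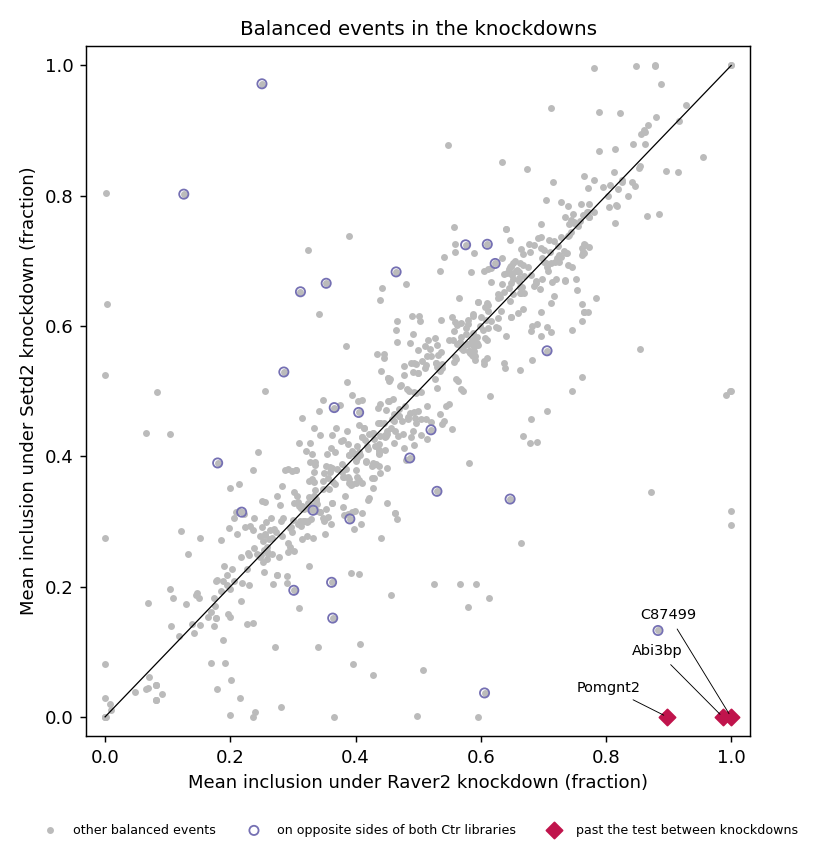
Mean inclusion of the 748 balanced events under Raver2 knockdown (x axis, fraction) against Setd2 knockdown (y axis, fraction), 1 point per event, with the line of equal values. Diamonds mark the 3 events past the test between the knockdowns, in the lower right corner, and rings mark other events of the 28 whose knockdown libraries lay on opposite sides of both Ctr libraries.

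RNA-binding and splicing proteins regulate the splicing of other genes and of their own. Of 111 listed events of such genes, 38 (34.2%) were balanced. The share of all events was 16.1%, and most of the gene lists used here exceeded it; it rests on the Ctr values of the rule and is no finding about these genes. None was past the test in either comparison with limma. The absolute difference from Ctr had a median of 0.0366 under Raver2 knockdown and 0.0365 under Setd2 knockdown, beside 0.0653 and 0.0627 for all balanced events. Event 1 of Ptbp1, which encodes PTB, had 0.307 and 0.303 in Ctr, 0.238 and 0.257 with Raver2 hairpins and 0.231 and 0.260 with Setd2 hairpins. All 4 knockdown libraries were lower than Ctr by less than 0.1, and the adjusted p was 0.394 and 0.374. Event 2 of Hnrnpa2b1, an hnRNP that binds and carries RNA, had 0.789 and 0.791 in Ctr and between 0.708 and 0.718 in the knockdown libraries (adjusted p = 0.0868 and 0.0957). The largest differences on the list were in Ythdf3, a reader of methylated adenosine, and Rbms3. Ythdf3 had 0.431 and 0.518 in Ctr, 0.676 and 0.619 with Raver2 hairpins and 0.675 and 0.687 with Setd2 hairpins (adjusted p = 0.157 and 0.113). In Rbms3 the Raver2 hairpins disagreed, at 0.561 and below 0.01.

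Chromatin genes held 21 balanced events of 77 listed, and none was past the test. Their median absolute difference was 0.0291 and 0.0451. Hdac7, a histone deacetylase, had 0.760 and 0.775 in Ctr in event 4, 0.849 and 0.884 with Raver2 hairpins and 0.909 in both Setd2 libraries (limma, adjusted p = 0.112 and 0.0577). Of 35 events in transcription factors and co-regulators, Prrx1 was past the test and lower in each knockdown. Ncoa2 was past it and higher under Setd2 knockdown. Of 11 on the list of adhesion and matrix genes, Itga6 was past the test and higher in each knockdown. App was past it and lower under Raver2 knockdown. The matrix gene Abi3bp, not on this list, was past it against Ctr, higher under Raver2 and lower under Setd2 knockdown. Of 16 in ubiquitin genes the pair in Rnf146 was past the test and lower under Raver2 knockdown. None was past the test among 16 events of small GTPases and their regulators, 7 of leukocyte genes, 6 each of apoptosis and of metabolic genes, and 1 of antigen presentation genes. The lists were written with earlier results of these data known, so their counts are no independent evidence of a direction. They are also not complete, and Aatk and Abi3bp, which were past the test, are on none of them.

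The steadiest balanced events barely differed over the 6 libraries. The range over all libraries was at most 0.1 in 170 events (22.7%) and at most 0.05 in 21, with a median of 0.158. Cnbp, a zinc finger protein that binds nucleic acids, stayed between 0.344 and 0.362, and Srsf7, an SR splicing factor, between 0.313 and 0.333. Mynn, Csnk1g2, Fam65b (event 2), Hnrnpd (event 1), Lsp1 and Rnpep were the next, with ranges from 0.0275 to 0.0425. These events kept a mixture of isoforms at nearly the same ratio in every library.

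At the other end, 73 events had a range above 0.5. In 1 event for Raver2 and 3 for Setd2, a hairpin gave a value below 0.01 and the other a value above 0.99. Kif17, a kinesin motor, had 0.599 and 0.531 in Ctr and above 0.99 with both Raver2 hairpins, while the Setd2 hairpins gave a value above 0.99 and a value below 0.01. Ldb2, a LIM domain-binding cofactor, had 0.304 and 0.309 in Ctr, and its Setd2 hairpins were likewise at opposite ends. Event 6 of Sox17, a factor of endoderm and endothelium, had 0.790 and 0.765 in Ctr and the same split between Setd2 hairpins. Srpx2, a secreted protein, had 0.567 and 0.515 in Ctr, and its Raver2 hairpins were above 0.99 and below 0.01. The Ctr libraries agreed in all 4 events, as the rule required, and the knockdown libraries of a target did not.

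The edge of the rule was narrow. Just inside the lower bound were Spire1 at 0.2011, Strn4 at 0.2014 and event 7 of Dag1 at 0.2015, and just outside were Icmt at 0.1991 and Mtss1 at 0.1977. At the upper bound event 6 of Il15ra had 0.7998 and Axl 0.7994 inside, and Mef2c had 0.8004 and Ssbp2 0.8008 outside. Of 1101 events with both Ctr libraries in the range, 353 (32.1%) were left out because they differed by more than 0.1. Mphosph9 was kept with a difference of 0.0997 and event 2 of Espn left out with 0.1001.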

How the data were processed

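RNA from sorted mTECs was sequenced in 6 libraries, 2 per group. The values deposited by the authors are fractions, the inclusion frequency of each alternative splicing event, with a gene symbol and neither counts, coverage nor coordinates. The submitters' processing notes list mm10 and the tools Cufflinks, TopHat2 and Trimmomatic 0.39 (no role or order given), per the labels. Per the labels' protocols, a SMART-seq kit for low input was used. How the frequency was computed is not given in the sources used here.

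Events were joined by gene symbol and order within the gene, keeping the 2685 of 2898 genes with the same number of rows in every library. Correlations between libraries were 0.742 to 0.802 at the same position and 0.0863 to 0.133 after a shift of the order. limma 3.58.1 (R 4.3.3) was fitted to the fractions, with a coefficient per Ctr library and a mean per knockdown, so that the residual had 2 degrees of freedom from the knockdown pairs, and a variance trend on the mean. Contrasts were two-sided. Alternatives were other errors, variance models, scales, event filters, rules and left-out libraries. The fit was also run on simulated fractions with normal errors and differences added to mid-range events. Those differences were not set to end at 0 or 1, so the run does not bear on events that do. Python 3.11.15, pandas 2.3.3, numpy 2.4.6 and matplotlib 3.10.9 were used.

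The members, lists, tests and naming rule were chosen with earlier results of these data known. The rule named up to 12 higher and 12 lower members past the threshold per contrast, 1 event per gene, up to 8 per direction by size, up to 3 per list, the 8 steadiest, the neighbours of each bound, the 6 with the largest hairpin difference, and Ptbp1 and Hnrnpa2b1; the text names some of them. Threshold neighbours and list counts carry no test. An event that met the rule is not reported here.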

Additional observations from a re-analysis of the deposited data

Results flagged for a closer look

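Of the balanced events, 3 had effects of the knockdowns that differed in a test of the difference itself. For Abi3bp the inclusion frequency under Raver2 knockdown exceeded that under Setd2 knockdown by 0.986 (limma, adjusted p = 0.0259). For C87499 it did so by 0.9995 (adjusted p = 0.0251), and for Pomgnt2 by 0.897 (adjusted p = 0.0298). No read depth is known for these events. In 28 balanced events, these 3 included, both libraries of a knockdown lay above both Ctr libraries and both of the other knockdown below them. These are 3.74% of the balanced events, beside 2.19% of all events. This count was not tested and depends on the Ctr difference that the rule capped. Of these events, 11 differed from Ctr by at least 0.1 in both knockdowns.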

How the results depend on the processing

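For Raver2 against Ctr, the number of balanced events past the limma test was 27. It was 9 with the 4 libraries compared only, 44 with no variance trend, 0 with events from 0.01 to 0.99 only, 8 with the rule narrowed to 0.3 to 0.7 and a Ctr difference of at most 0.05, and 67 with the rule widened to 0.1 to 0.9 and 0.2. For Setd2 the number was 23, and 0, 2, 6 and 62 with the 4 libraries, the 0.01 to 0.99, the narrow and the wide setting. At an unadjusted p under 0.05 the 4-library Setd2 fit held 103 (13.8%, beside 11.9% of all events). Between the knockdowns it was 3, with 5 on the error from all 6 libraries, 5 on the logit scale and 0 with events from 0.01 to 0.99. With 1 knockdown library left out, the events past the test against Ctr were in part other events than in the main fit. With 1 Ctr library left out, all were among those of the main fit. Between the knockdowns, none of the 3 was kept with a knockdown library left out. A lone library is then assumed to vary like the other pair. The narrow rule kept 271 events, of which 239 and 225 stayed between 0.2 and 0.8 and 23 and 24 differed by at least 0.2 (Raver2, Setd2). The wide rule kept 1508, with 168 and 202 differing by at least 0.2. No event past the test changed direction in these fits, but most of them could not reverse one. Fits that change only the error, the variance model or the events fitted leave the estimated difference as it was. Leaving out a library cannot reverse an event with both knockdown libraries beyond both Ctr libraries. Other named events were not recomputed. The values of events past the test, recomputed under the alternatives, stayed past it in 218 of 334 cases for Raver2, 189 of 284 for Setd2 and 17 of 33 between the knockdowns. The cause of these shifts was not tested, beyond fewer events or libraries in a fit.

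With the hairpin number as a replicate block, 0 events were past the test between the knockdowns, where the smallest adjusted p was 0.504 and 17 balanced events (2.27%) had an unadjusted p under 0.05, as did 5.69% of all events. Same-numbered hairpins share only a number (correlation of their deviations 0.0146 over all events). No block could be fitted against Ctr, whose libraries carry no hairpin number. Depth is unknown, so fractions at 0 or 1 have no counting error here.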
